A study of Mus musculus with 6 samples.

Results

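A set of 10 genes of the p53 pathway, Trp53 and 9 known targets of its protein p53, was examined in RNA sequencing of mouse bone marrow cells sorted for LT-HSCs (haematopoietic stem cells that sustain blood formation over the long term). The set holds Trp53, Mdm2, Ccng1, Aen, Phlda3, Zmat3, Trp53inp1, Apaf1, Sesn1 and Eda2r. Each was taken by its symbol from the deposited tables, which held all 10 among 21851 genes. The mice, labelled WT, had eaten either a control diet (CD) or a high cholesterol diet (HCD) for 3 months, and each diet has 3 libraries. Housing was free of specific pathogens for both groups. The labels give no strain, age or sex and leave unsaid if each library is 1 animal. P-values therefore measure only the spread between these libraries, which may be technical. The gate took cells without lineage markers, with KIT and SCA1 and without CD34 and CD135.

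As background, p53 is a transcription factor that is held low by its ubiquitin ligase MDM2 and is stabilised after DNA damage and other stress. It then raises genes for cell cycle arrest, DNA repair, metabolism and cell death, and it raises Mdm2, which closes a feedback loop. In haematopoietic stem cells p53 is known for keeping cells quiescent and for removing cells after irradiation. Much of its regulation acts on the protein, so the level of the Trp53 transcript is a poor guide to p53 activity.

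Expression values are FPKM (fragments scaled by transcript length and by the reads mapped in the library), a scale on which levels of different genes can be compared. Their sum lay between 427219 and 462370 in each library. The step between low values, which is what 1 read is worth, put the depth at about 19920000 to 21150000 reads or fragments. Across 10676 genes that reached 1 FPKM in 3 or more libraries, limma on log2(FPKM + 1) placed 1488 (13.9%) past a Benjamini-Hochberg adjusted p of 0.05. Of these 670 (6.28%) were higher and 818 (7.66%) lower under HCD. The split was 754 and 617 with TMM factors, and 775 and 586 once a trend with transcript length was taken out. HCD replicate 2 stood apart from the other HCD libraries, and without it 2672 genes passed. Longer transcripts were lower in HCD replicate 2 than in the other HCD libraries (Spearman rho across genes -0.28) and lower under HCD than under CD (rho -0.25, and -0.15 without HCD replicate 2). Although the gate takes cells without CD34 and CD135, Cd34 lay between 448 and 488 FPKM and Flt3 (CD135) between 99.7 and 115 FPKM. Neither passed the test between diets, nor did Kit and Ly6a (SCA1).

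The DNA element that p53 binds is a pair of 10-base units, each known as the p53 decamer. RefSeq promoter windows (GRCm38.p6, 250 bases before to 50 after a transcription start) were found for 8 of the 10 genes, with 10 windows in all. A decamer that fits the consensus at every base was found in 6 of these windows, which belong to Trp53, Mdm2, Aen (both of its windows, which share 1 decamer), Ccng1 and Sesn1. Each of the 6 held 1 such decamer, so none held a pair that fits at every base. The decamer consensus reads the same on both strands. Of all 32851 windows of this length, 8.36% held one. A match describes letters and is not evidence of binding, and its absence says only that these letters are not in the window. The windows of Aen and Phlda3 are shown because these genes fell under HCD, and those of Ccng1 and Mdm2 because they are textbook p53 targets that did not pass the test. Capitals mark the decamer.

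Aen, chr7:78895677-78895976, plus strand: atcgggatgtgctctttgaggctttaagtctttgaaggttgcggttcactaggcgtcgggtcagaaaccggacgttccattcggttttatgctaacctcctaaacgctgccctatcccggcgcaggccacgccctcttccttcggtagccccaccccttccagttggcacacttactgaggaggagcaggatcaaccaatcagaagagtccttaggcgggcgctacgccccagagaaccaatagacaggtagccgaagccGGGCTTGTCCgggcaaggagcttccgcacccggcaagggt

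Phlda3, chr1:135765835-135766134, plus strand: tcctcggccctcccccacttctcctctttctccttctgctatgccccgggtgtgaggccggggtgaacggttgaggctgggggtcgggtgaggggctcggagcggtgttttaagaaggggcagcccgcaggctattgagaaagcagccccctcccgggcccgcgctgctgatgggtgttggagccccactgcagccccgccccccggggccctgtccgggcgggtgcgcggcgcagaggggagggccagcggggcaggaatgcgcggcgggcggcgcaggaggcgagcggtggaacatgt

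Ccng1, chr11:40755237-40755536, minus strand: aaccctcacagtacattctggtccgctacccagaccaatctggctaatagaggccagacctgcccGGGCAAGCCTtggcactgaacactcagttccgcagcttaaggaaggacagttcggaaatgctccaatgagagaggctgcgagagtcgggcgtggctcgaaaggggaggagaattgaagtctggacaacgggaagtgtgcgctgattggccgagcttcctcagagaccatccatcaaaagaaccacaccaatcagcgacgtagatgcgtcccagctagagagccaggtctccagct

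Mdm2, chr10:117710709-117711008, minus strand: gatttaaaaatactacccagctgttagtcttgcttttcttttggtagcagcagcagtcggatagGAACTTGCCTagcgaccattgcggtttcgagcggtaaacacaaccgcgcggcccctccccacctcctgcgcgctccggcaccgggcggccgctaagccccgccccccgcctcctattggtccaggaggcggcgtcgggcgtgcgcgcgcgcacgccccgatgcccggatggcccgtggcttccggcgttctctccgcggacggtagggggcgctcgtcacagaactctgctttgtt

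The decamer began 10 bases after the start site in this window of Aen, 185 bases before it in Ccng1 and 186 bases before it in Mdm2. The window of Phlda3 held none. The remaining matches are given by their letters alone.

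Trp53, 75 bases before the start: GGACTTGCCC

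Sesn1, second start site, 173 bases before the start: AAGCTTGTTT

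Under HCD, 2 of the 10 genes fell, Aen and Phlda3, and 0 rose. Both encode proteins that act after p53 is active. Trp53 itself and Mdm2 did not pass the test, nor did Ccng1, Trp53inp1, Apaf1 and Sesn1. Zmat3 and Eda2r lay under the filter of 1 FPKM and were not tested. The 8 tested genes were all at 1 FPKM or more in all 6 libraries. At an unadjusted p under 0.05 by limma, 1 was higher and 4 were lower, beside 12.6% and 18.3% of all tested genes. The 2 of 8 that fell (25%) stand beside 7.66% of all tested genes that fell. The set was chosen with earlier results of these data known, so its shares beside all tested genes are descriptive. The median log2 difference of the 8 was -0.06, against -0.03 for all genes tested. In 5 of the 8 (62.5%) the values of the 2 diets did not overlap, against 37.7% of all tested genes. HCD was the lower group in 4 of these, against 22.7% of all tested genes, and the higher group in 1, against 15%. Without HCD replicate 2 there were 3 fallers, Ccng1 being the third, and 1 riser, Apaf1, in a fit that called 14.2% of all tested genes lower and 11% higher.

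**Figure D1:**
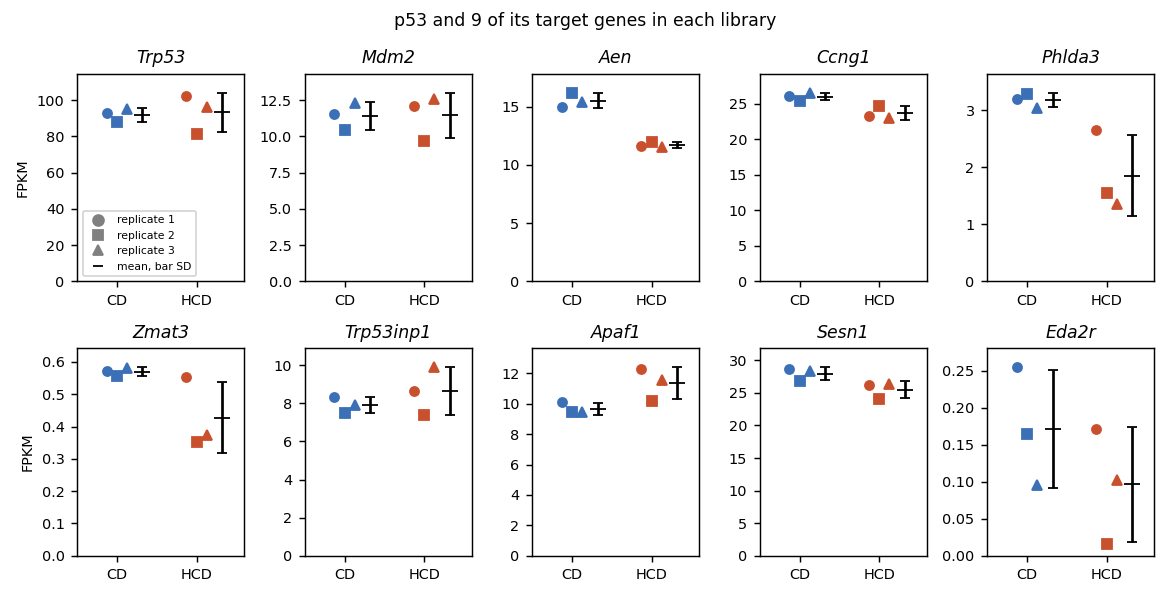
FPKM of the 10 genes in each library, with CD in blue and HCD in red, marker shape for the replicate number, and the mean with SD as a black bar (n = 3). Each panel has its own linear axis from 0. Aen lay between 14.96 and 16.2 in CD and between 11.5 and 12.0 in HCD, while Trp53 and Mdm2 overlapped between diets.

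Trp53, which encodes p53 (chromosome 11, 69580359 to 69591873, GRCm38), was the most abundant of the 10. Its FPKM was 92.8, 87.8 and 95.1 in CD replicates 1 to 3 and 102, 81.2 and 96.3 in HCD replicates 1 to 3. The HCD libraries held both the highest and the lowest value, so the groups overlapped. Means were 91.9 ± 3.76 (SD, n = 3) in CD and 93.2 ± 10.8 (SD, n = 3) in HCD. The log2 difference was 0.01, with a 95% interval from -0.17 to 0.20 (limma adjusted p = 0.922). Without HCD replicate 2 it was 0.11 (adjusted p = 0.0965). The direction turned without CD replicate 2, HCD replicate 1 or HCD replicate 3, and with quantile normalization.

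Mdm2, which encodes the ligase that marks p53 for degradation (chromosome 10, 117688875 to 117710758), measured 11.5, 10.4 and 12.3 FPKM in CD and 12.1, 9.69 and 12.6 FPKM in HCD. Replicate 2 was the lowest in each diet, and the groups overlapped. The means of 11.4 ± 0.945 and 11.5 ± 1.54 (SD, n = 3 each) differed by less than the spread, with a 95% interval of the log2 difference from -0.23 to 0.23 (limma adjusted p = 0.999). As a share of the Trp53 level in the same library, Mdm2 stood at 12.4%, 11.9% and 12.9% in CD and at 11.9%, 11.9% and 13.1% in HCD. These shares overlapped between the diets, and HCD replicate 3 lay slightly above the CD libraries. In HCD replicate 2, where both levels were low, the share was that of CD replicate 2.

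Ccng1 (chromosome 11, 40748552 to 40755311) encodes cyclin G1, which works with a phosphatase in the feedback on MDM2 and p53. It measured 26.1, 25.4 and 26.5 FPKM in CD and 23.3, 24.8 and 23.0 FPKM in HCD. All HCD values were below all CD values, by a small margin in replicate 2. The log2 difference of -0.13 (SE 0.05) did not pass (limma adjusted p = 0.125). Without HCD replicate 2 it was -0.16 and passed (adjusted p = 0.031).

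Among the genes of cell death, Aen (chromosome 7, 78895854 to 78911209) encodes an exonuclease that digests DNA and RNA during apoptosis. Its FPKM was 14.96, 16.2 and 15.4 in CD and 11.6, 12.0 and 11.5 in HCD. The 3 HCD libraries were close to each other and all below the lowest CD library. Aen fell by 24.6%, from 15.5 ± 0.616 to 11.7 ± 0.255 FPKM (SD, n = 3 each), a log2 difference of -0.38 (SE 0.06, limma adjusted p = 0.00585). By p-value it ranked 256 among the 10676 genes tested. The call held under every alternative run and without any single library, with adjusted p from 0.00153 to 0.0372. In bulk RNA, fewer cells that express a gene and less RNA per cell cannot be told apart, here and for all genes below.

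Phlda3 (chromosome 1, 135766119 to 135769136) encodes a small protein with a pleckstrin homology domain that restrains AKT and so favours cell death. It measured 3.20, 3.29 and 3.04 FPKM in CD and 2.66, 1.54 and 1.36 FPKM in HCD. HCD replicate 1 was near the CD libraries and the other HCD libraries were lower, without overlap between groups. Phlda3 fell by 41.7%, from 3.18 ± 0.127 to 1.85 ± 0.705 FPKM (SD, n = 3 each), a log2 difference of -0.58 (SE 0.16, limma adjusted p = 0.043). This call sits close to the threshold: adjusted p was 0.133, 0.129 and 0.119 without CD replicates 1, 2 and 3, 0.0971 without HCD replicate 3 and 0.0897 with no filter. The values rest on an estimated 39 to 94 reads per library.

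Apaf1 (chromosome 10, 90989311 to 91082770) encodes the scaffold of the apoptosome, on which caspase-9 is activated by cytochrome c. Its FPKM was 10.1, 9.44 and 9.44 in CD and 12.3, 10.2 and 11.5 in HCD. It was the only one of the 10 genes with every HCD library above every CD library. The log2 difference of 0.21 (SE 0.08) did not pass (limma adjusted p = 0.112). It passed without HCD replicate 2 (0.28, adjusted p = 0.013), with quantile normalization (0.25, adjusted p = 0.0412) and with the length trend removed (0.30, adjusted p = 0.0193). The longest annotated transcript of Apaf1 has 6577 bases, against a median of 3378 for tested genes.

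Eda2r (chromosome X, 97333840 to 97377216) encodes a receptor of the tumour necrosis factor receptor family whose ligand is the A2 form of ectodysplasin. It was barely detected, at 0.255, 0.164 and 0.0950 FPKM in CD and 0.171, 0.0163 and 0.102 FPKM in HCD. These values correspond to an estimated 2 to 25 reads per library, and a difference was not detectable at this depth.

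Sesn1 and Trp53inp1 belong to the metabolic and stress arm of the pathway. Sesn1 (chromosome 10, 41809935 to 41908424) encodes sestrin 1, which inhibits the growth kinase complex mTORC1 when amino acids are scarce. It measured 28.7, 26.9 and 28.3 FPKM in CD and 26.2, 24.1 and 26.3 FPKM in HCD. All HCD values were below all CD values, yet the log2 difference of -0.13 (SE 0.06) did not pass (limma adjusted p = 0.161). Trp53inp1 (chromosome 4, 11156431 to 11174379) encodes a stress protein that acts in p53 signalling and autophagy. It measured 8.36, 7.50 and 7.93 FPKM in CD and 8.67, 7.41 and 9.89 FPKM in HCD. The groups overlapped, with HCD replicate 2 the lowest and HCD replicate 3 the highest of the 6 libraries. Its log2 difference of 0.11 had a 95% interval from -0.12 to 0.33 (limma adjusted p = 0.502). It was 0.20 without HCD replicate 2 (adjusted p = 0.085), 0.07 without CD replicate 2 and 0.016 without HCD replicate 3.

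Zmat3 (chromosome 3, 32334792 to 32366014) encodes a zinc finger protein that binds RNA and acts in tumour suppression by p53. It stayed under 1 FPKM in all 6 libraries, at 0.572, 0.555 and 0.582 in CD and 0.555, 0.353 and 0.374 in HCD. HCD replicate 1 was below the lowest CD library by less than 0.001 FPKM and the other HCD libraries were lower. These values correspond to an estimated 90, 86 and 90 reads in CD and 91, 58 and 59 in HCD, over a longest transcript of 7797 bases. In the fit without a filter the log2 difference of Zmat3 was -0.14 (limma adjusted p = 0.247).

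By mean level over the 6 libraries the order was Trp53 (92.5 FPKM), Sesn1 (26.8), Ccng1 (24.8), Aen (13.6), Mdm2 (11.4), Apaf1 (10.5), Trp53inp1 (8.29), Phlda3 (2.52), Zmat3 (0.499) and Eda2r (0.134). Ranges over the libraries overlapped between the neighbours Sesn1 and Ccng1, Aen and Mdm2, Mdm2 and Apaf1, and Apaf1 and Trp53inp1. Those of the remaining neighbours did not. Within HCD, replicate 2 was the lowest library for 7 of the 10 genes, and within CD replicate 2 was the lowest for 6. Genes with a lower HCD replicate 2 included Trp53, Mdm2, Apaf1, Sesn1 and Trp53inp1, whereas Aen and Ccng1 were highest there within HCD.

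**Figure D2:**
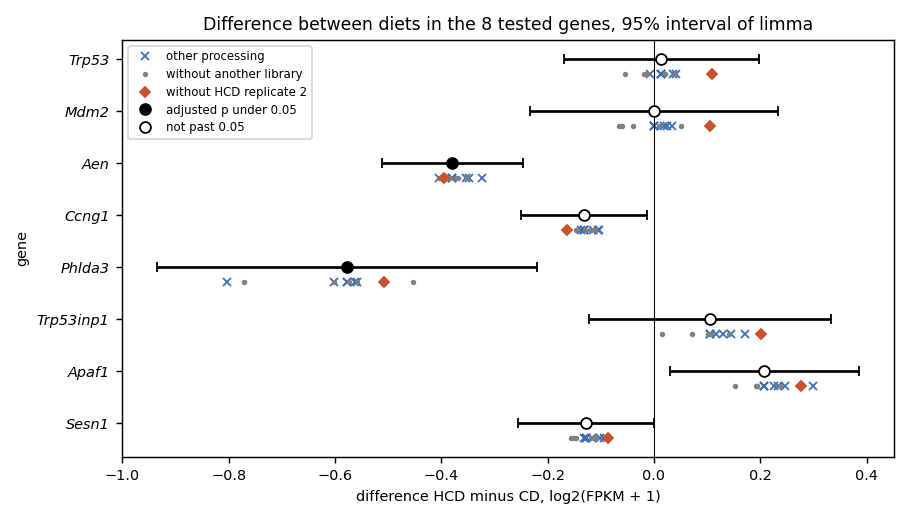
Difference between diets (HCD minus CD, on the log2(FPKM + 1) scale) for the 8 tested genes, with limma's 95% interval and a filled circle where the adjusted p is under 0.05. Small marks below each circle give the difference under each alternative, with the fit without HCD replicate 2 as a red diamond. Aen and Phlda3 are the filled circles, at -0.38 and -0.58. Marks of Trp53 and Mdm2 fall on both sides of 0.

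Of the other textbook p53 targets 29 were tested from 30 listed. Under HCD 7 rose (24.1%, beside 6.28% of all tested genes) and 0 fell. The median log2 difference was 0.09, against -0.03 for all genes tested. The list was chosen with earlier results of these data known, so these contrasts describe it and do not test it. At an unadjusted p under 0.05, 11 were higher and 2 lower by limma, beside 12.6% and 18.3% of all tested genes. Perp and Ak1 passed the filter mainly through HCD, with 1 CD library each at 1 FPKM. Ak1 is among the 7 and so counts in the 24.1%. Counts for this list were 2 to 4 without any single library other than HCD replicate 2. In those fits 258 to 494 of 10594 to 10622 tested genes rose. Without HCD replicate 2 the count was 12, where 11% of all tested genes rose. With no filter it was 4 of 30, where 538 of 15603 genes rose. A filter of 5 FPKM gave 3 of 17, where 547 of 8286 genes rose.

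Btg2, an antiproliferative gene that also belongs to the immediate early genes, measured 39.1, 40.3 and 41.2 FPKM in CD and 119.9, 93.3 and 121.1 FPKM in HCD. It was well above CD in every HCD library, least in replicate 2 (log2 difference 1.44, limma adjusted p = 8.9e-05). Pmaip1, which encodes the death protein NOXA, went from a mean of 1.206 ± 0.121 FPKM (SD, n = 3) to 3.55, 2.33 and 4.07 FPKM in the HCD libraries (log2 difference 0.95, limma adjusted p = 0.00687). It was low under both diets, and the HCD libraries were all above CD.

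The other risers were smaller. Sesn2, the stress-induced paralog of Sesn1, went from 3.82 ± 0.513 to 5.10 ± 0.186 FPKM (limma adjusted p = 0.0442), while Sesn1 lay lower under HCD without passing. Abhd4, a lipid hydrolase gene, rose from 31.0 ± 0.328 to 37.8 ± 2.24 FPKM, and the sugar reductase gene Dcxr from 8.58 ± 0.515 to 10.4 ± 0.320 FPKM. Ephx1 (epoxide hydrolase) rose from 1.245 ± 0.086 to 2.17 ± 0.511 FPKM and Ak1 (adenylate kinase) from 1.08 ± 0.190 to 1.83 ± 0.114 FPKM. Each of these 5 lost its call when at least 3 of the single libraries were left out in turn.

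Cdkn1a, Bax and Bbc3, named after their values were seen, are the textbook targets for arrest and cell death. Cdkn1a, which encodes the cell cycle inhibitor p21, measured 31.7, 27.7 and 27.8 FPKM in CD and 37.1, 24.9 and 41.5 FPKM in HCD. HCD replicate 2 was below every CD library and the other HCD libraries above, so the groups overlapped (limma adjusted p = 0.403). Without HCD replicate 2 the log2 difference was 0.42 (limma adjusted p = 0.00271), in a fit that called 11% of all tested genes higher. It was 0.14 without HCD replicate 1 and 0.065 without HCD replicate 3 (adjusted p = 0.648 and 0.794). Leaving out a CD library gave 0.18 to 0.27, and Cdkn1a did not pass there either. Bbc3, the gene of the death protein PUMA, measured 2.93 ± 0.295 FPKM in CD and 3.61 ± 0.599 in HCD (adjusted p = 0.222). It passed without HCD replicate 2 (adjusted p = 0.0281), but not without any other single library (adjusted p from 0.244 to 0.473). Bax, which encodes a pore-forming death protein, measured 18.2 ± 0.256 and 16.8 ± 0.875 FPKM (adjusted p = 0.221).

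Among genes for proteins that regulate p53, 3 of 19 tested fell (15.8%, beside 7.66% of all tested genes) and 0 rose. The median log2 difference was -0.11, against -0.03 for all genes tested. This list too was chosen with earlier results of these data known, so its shares are descriptive. At an unadjusted p under 0.05, 0 were higher and 6 lower by limma, beside 12.6% and 18.3% of all tested genes. With the replicate block 6 fell, with Atr, Trp53bp1 and Crebbp added (limma adjusted p = 0.0415, 0.0306 and 0.0485). That fit called 1032 of all 10676 tested genes lower, against 818 without the block. The pairs in the block were chosen from these same values, so the calls it adds are descriptive. When CD replicate 1, 2 or 3 was left out, 1 fell each time. Those fits called 177, 241 and 220 of 10620 to 10622 tested genes lower. Chek1, a checkpoint kinase gene of replication stress, fell from 18.8, 17.9 and 17.7 FPKM to 12.5, 12.0 and 13.01 FPKM (log2 difference -0.50, adjusted p = 0.00176). Atm, the kinase gene of the response to double-strand breaks, fell from 12.3 ± 0.222 to 8.88 ± 0.970 FPKM (adjusted p = 0.0118). Its log2 difference shrank from -0.43 to -0.28 with the length trend removed and still passed (limma adjusted p = 0.0185). Hipk2, which encodes a kinase that phosphorylates p53, fell from 8.11 ± 0.133 to 6.31 ± 0.302 FPKM (adjusted p = 0.0195), and did not pass with the length trend removed (adjusted p = 0.0613).

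Without any one of the CD libraries Atm and Hipk2 did not pass by limma (adjusted p from 0.0533 to 0.0851), nor did Hipk2 without HCD replicate 1 (adjusted p = 0.0576). Mdm4, the partner of MDM2 that masks the activation domain of p53, was named after its values were seen. It measured 28.8, 25.1 and 30.0 FPKM in CD and 26.0, 13.8 and 26.7 FPKM in HCD, with HCD replicate 2 far below the other 5 libraries (adjusted p = 0.272). Trp63 and Trp73, the paralogs of Trp53, are listed at 0 in all 6 libraries.

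Of the 7 tested partners of APAF1 in the apoptosome and its caspases, 0 rose and 0 fell by limma, while 2 had an unadjusted p under 0.05, as did 30.9% of all tested genes. Their median log2 difference was -0.08. They were likewise listed with earlier results of these data known. With the replicate block, chosen from these same values, Cycs, the cytochrome c gene, was lower (adjusted p = 0.0296). It went from 21.1, 24.2 and 23.2 FPKM in CD to 18.0, 20.9 and 19.4 FPKM in HCD without overlap (adjusted p = 0.0798 without the block, and 0.0159 without HCD replicate 2). Diablo, which encodes an antagonist of XIAP, and Xiap, which encodes an inhibitor of caspases, measured 29.1 and 12.0 FPKM in CD. In HCD they measured 25.3 and 10.7 FPKM (limma adjusted p = 0.144 and 0.183).

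**Figure D3:**
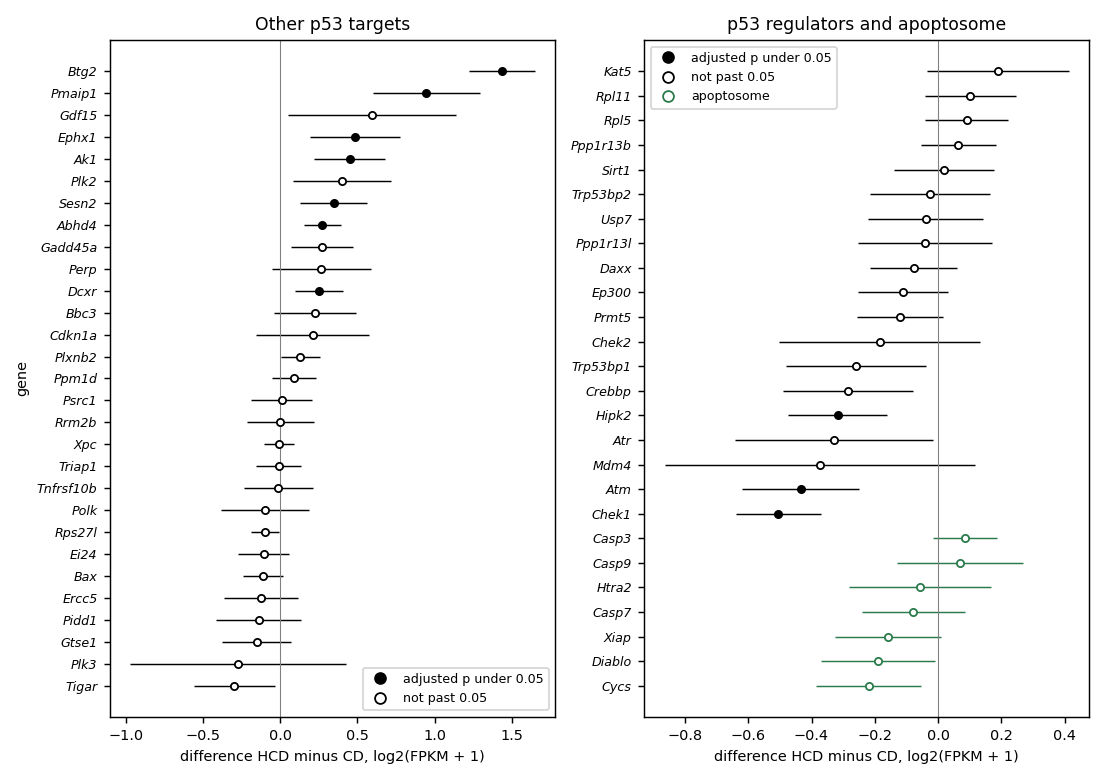
Difference between diets (HCD minus CD, on the log2(FPKM + 1) scale) with limma's 95% interval for the other p53 targets (left) and for the p53 regulators in black and apoptosome genes in green (right). Filled circles have an adjusted p under 0.05. On the left the 7 filled circles lie right of 0, led by Btg2 at 1.44, and on the right Chek1, Atm and Hipk2 lie left of 0.

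Markers of other cell types moved with diet in the same libraries. Beside the counts that follow, 6.28% of all tested genes rose and 7.66% fell by limma. An unadjusted p under 0.05 was found for 30.9% of all tested genes. The marker lists were also chosen with earlier results of these data known, so their counts are descriptive. All 8 markers of granulocyte and monocyte progenitors rose, with summed levels of 881 to 910 FPKM in CD and 1658 to 1826 in HCD. Of the 7 neutrophil markers 6 were tested and rose (12.2 to 12.3 FPKM in CD, 40.0 to 48.2 in HCD). Of these Camp, Lcn2 and Retnlg were under 1 FPKM in every CD library and passed the filter only through HCD, so that they had to differ to be tested. Of the granulocyte and monocyte markers Cebpe reached 1 FPKM in 1 CD library. All 4 tested megakaryocyte markers of 6 rose (49.95 to 54.1 and 82.0 to 96.8). Of the 8 lymphoid markers 3 were tested and 2 rose, Nkg7 and Jchain (sums of 144 to 149 and 233 to 269 FPKM over the list). The B cell factor genes Ebf1 and Pax5, untested at under 0.5 FPKM, lay below CD in every HCD library, and Cd3e is listed at 0 in all libraries. Of the 7 erythroid markers 3 were tested and 0 changed by limma (19.3 to 22.4 and 17.2 to 18.9, with 1 at an unadjusted p under 0.05). Of those not tested, Hba-a2 lay between 0.0927 and 0.283 FPKM in CD and is listed at 0 in every HCD library. Epor went the other way, with means of 0.863 FPKM in CD and 1.33 FPKM in HCD and every HCD library above CD. Of the 5 multipotent progenitor markers 0 changed (1079 to 1130 and 1008 to 1081, with 2 at an unadjusted p under 0.05). In every library their sum was above that of the HSC markers, and Dntt among them lay between 264 and 340 FPKM. Which cells carry these transcripts was not tested. Of 7 tested HSC markers from 8, 1 rose and 3 fell (138 to 140 and 126 to 129). Of 12 immediate early genes, which respond to cell handling as well as to stimuli, 10 rose (2820 to 3011 and 5319 to 6737). The part of these in the differences of Aen, Phlda3 and the other p53 targets was not tested.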

How the data were processed

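Per the labels' protocols, a micro column kit gave the RNA of sorted cells, from which stranded mRNA libraries were made. The submitters' processing notes name fastp, HISAT2, StringTie and the builds GRCm38 and mm10. No version, annotation or strand setting is given in the sources used here. As deposited, the values were taken as FPKM from the values themselves, since the file headers give a sample name only. Of 21878 rows, 27 with a date in place of a symbol (0.127% of the FPKM) were left out. In 1633 of 1963 low genes (83.2%) the values were whole multiples of 1 read, with a tolerance of 0.02 reads, and this gave the depth. Read numbers per gene use the longest GENCODE vM21 transcript and are estimates. No count model was used.

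The test was limma 3.58.1 (R 4.3.3) on log2(FPKM + 1), with a mean-variance trend, robust variances and no covariate. It was two-sided and took genes that reached 1 FPKM in 3 or more libraries. P-values were adjusted by Benjamini-Hochberg over all genes tested, with a threshold of 0.05. A fold on this scale understates the change of low genes. The fit was tested on simulated data. Alternatives were no filter, a filter of 5 FPKM, a pseudocount of 0.1, TMM factors, quantile normalization, removal of the length trend, the replicate block and leaving out each library. The genes and lists were chosen with earlier results of these data known. Named genes are the 10, the list members past the threshold or the 3 with the smallest p, and the sort markers. Other genes in the text, among them Perp, Trp63, Trp73 and single markers of other cell types, were chosen after seeing their values. The deviations of same-numbered libraries from their group means correlated by 0.103, 0.292 and 0.166 across genes. All are over 0.1, so the numbers were treated as pairs in the block, on these data and not on the labels. P-values with the block come from the values that chose its pairs and may be too small. CD replicate 1 with HCD replicate 3 gave 0.0983, and CD replicate 3 with HCD replicate 1 gave 0.0941. Both are close to the 0.103 of the replicate 1 pair, so replicates 1 and 3 are hardly told apart. Replicate 2 set against another number gave -0.25 to -0.133.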

Additional observations from a re-analysis of the deposited data

How the results depend on the processing

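Leaving out single libraries moved the genes called higher between 258 and 1171 and those lower between 177 and 1501, of which the highest counts are those without HCD replicate 2. Among the 10 genes the number lower was 2, and 1 with no filter or with a filter of 5 FPKM, which leaves Phlda3 untested. It was 1 to 3 when single libraries were left out. The number higher was 0, and 1 with quantile normalization, with the length trend removed, and 0 to 1 when single libraries were left out, in each case Apaf1. The log2 difference of Trp53 changed sign with quantile normalization (-0.0068), and ran from -0.054 to 0.109 when single libraries were left out. That of Mdm2 became 0.025 with TMM factors, 0.035 with quantile normalization and 0.019 with the length trend removed, and ran from -0.066 to 0.106 when single libraries were left out. That of Kit became 0.019 with the length trend removed. The cause was not tested for any of these. With the replicate block, whose pairs were chosen from these same values, 1873 genes passed by limma. Phlda3 had an adjusted p of 0.0193 there and Aen of 0.00666. Over all tested genes the block brought the count of risers from 670 to 841. Among the other p53 targets it brought the count from 7 to 10, with Plk2, Gadd45a and Gdf15 added. Beyond these and the genes given with the block above, it changed no call of a gene in the p53, regulator and apoptosome lists. The filter leaves Eda2r and Zmat3 untested, and Phlda3 rests on an estimated 39 to 94 reads per library.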
